A study of Mus musculus with 2 samples.

Results

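Unannotated transcript models on the strand opposite an annotated gene were followed in long-read RNA-seq of mouse gastrocnemius, the calf muscle in which fast fibres prevail. Members were selected on their reads: they were the models that the authors' tables class as antisense and that held 5 or more reads in a library. Models over Klhl31, models over a ribosomal RNA repeat stretch of chromosome 17, and models on spike-in RNA were left out. This gave 2260 models in replicate 2 and 517 in replicate 1, of 90453 and 79264 mouse models of any class. Models whose spans overlapped on the same strand were joined, which gave 2291 loci opposite 1733 genes. Reads chose the members, so read numbers are given below as a description and were not tested.

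The tissue came from 25-day-old males of strain B6CASTF1/J, an F1 cross of the inbred lines C57BL/6J and CAST/EiJ. They form 1 group of 2 biological replicates, with total RNA as the molecule and 2 µg as the starting amount of each library. The labels name a separate animal for each replicate but point to 1 donor record for both. With 1 group there was no comparison of conditions.

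Antisense RNA is made when a stretch of DNA is copied from both strands. It can start at a promoter that fires in both directions, at a promoter of its own inside or past a gene, or where transcription of a neighbour runs on into the gene. In a cDNA library, reads on the opposite strand can also come from the way the cDNA was made, so the ends and introns of such models are informative beside their reads.

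Mouse reads numbered 1654197 in replicate 2, with 1549606 of them in annotated genes, and 1240942 in replicate 1, with 1215785. Levels are CPM, reads for every 1000000 that the library has in annotated genes, and a count of 0 allowed up to 1.94 CPM in replicate 2 and 2.47 in replicate 1. Genes listed as markers of fast fibres were abundant. Ckm (muscle creatine kinase) was at 69403 and 68718 CPM in replicates 2 and 1, and Acta1 (skeletal actin) at 65981 and 71337. The others on that list differed between the libraries in both directions. Myh4 was at 9831 and 23867 and Atp2a1 at 23536 and 151516, while Mylpf was at 31911 and 19005 and Tnnt3 at 3915 and 1964. Of slow fibres, Myh7 was at 270 and 1000, Tnnc1 at 1245 and 312, and Myl2 at 347 and 90.5. Among markers of other cells, the immune gene Ptprc was at 0 in both libraries, C1qa of macrophages had 28 and 22 reads, Pecam1 of endothelium 9 and 12, and Col1a1 of fibroblasts 433 and 2976. The libraries also differed in their classes of reads. All antisense models took 5.21% of the mouse reads in replicate 2 and 1.70% in replicate 1, a ratio of 3.07, beside ratios of 2.85 for genomic models (unspliced or partly spliced reads over a gene) and 3.54 for intergenic models. In tissue RNA, fewer cells of a type and less RNA per cell cannot be told apart, and the part of these cell markers in the antisense difference between the libraries was not tested.

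Sequences are shown at the 3' ends of 13 loci with many reads, because runs of A there recur through the results. Each line gives 30 bases of the antisense strand, 5′ to 3′, in build GRCm38 (mm10): the last 10 bases of the model with most reads and the 20 bases that follow it in the transcribed DNA. They were rebuilt from the GENCODE M21 transcript sequence of the opposite gene. Capitals mark the longest run of 4 or more A. The first 8 have a run of A of 11 or more bases at or within a few bases of the end, and in Cdv3, Nfia, Tmem250-ps, Furin and Col1a1 no run longer than 4 is present. The recorded 3' ends of Cdv3 and Tmem250-ps lie on annotated exon boundaries, so they need not be the ends of reads.
Msrb3 (chr10:120783305-120783334, plus strand): aactttggacAAAAAAAAAAAAAAAAtgga
Sdc4 (chr2:164425125-164425154, plus strand): acggagcattAAAAAAAAAAAAAAAAAAAA
Mcu (chr10:59447979-59448008, plus strand): actaattagtAAAAAAAAAAAAAAAAAAAA
Satb1 (chr17:51812310-51812339, plus strand): ggagaggaattAAAAAAAAAAAAAggtacc
Pitpnc1 (chr11:107212269-107212298, plus strand): agaattctttAAAAAAAAAAAAAAAAAAAg
Spry2 (chr14:105892586-105892615, plus strand): cacatggaccAAAAAAAAAAAAAAAAAAAA
Ak1 (chr2:32634193-32634222, minus strand): gagatgctgtcttAAAAAAAAAAAAAAAga
Irs1 (chr1:82236807-82236836, plus strand): tctgtttgggAAAAAAAAAAAcaaaacaaa
Cdv3 (chr9:103355304-103355333, plus strand): ttctttatccctaagggAAAAgaaatgtaa
Nfia (chr4:98111250-98111279, minus strand): ggggtcaggtggtctgtctggaggatggtg
Tmem250-ps (chr2:26138374-26138403, plus strand): ggtgggccctcacatgtccacaaagaccat
Furin (chr7:80389677-80389706, plus strand): ctttcttagagcccaccgggctggcctgcc
Col1a1 (chr11:94952464-94952493, minus strand): tgataccaaactgggcgtgctgccaccctg

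The antisense loci were mostly small, unspliced and opposite protein-coding genes. Single-exon models alone made up 2254 of the 2291 loci (98.4%), and 1869 loci consisted of 1 model. By model, 2229 of 2260 were single-exon in replicate 2 (98.6%) and 506 of 517 in replicate 1 (97.9%), beside 95.3% and 88.6% of intergenic models with the same minimum. The median length of a single-exon member was 765 bp, with quartiles at 322 and 1851 bp and a maximum of 10067 bp. A protein-coding gene lay opposite 2129 loci (92.9%), a lincRNA gene opposite 58, and no annotated gene opposite 28. Of all loci, 39 overlapped an annotated gene on their own strand, and 449 began within 10000 bp past the end of a gene on their strand, 49 of them within 1000 bp. The rule's threshold fell where models were many: 449 models in replicate 2 and 116 in replicate 1 had 5 reads, just inside it, and 755 and 208 had 4 reads, just outside.

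By place on the opposite gene, introns held the most loci, but the 3' side held the most reads. A locus was placed at the 3' end or promoter where its exons came within 500 bp of the gene's annotated end or start. Otherwise it was placed in the last exon, another exon or an intron. The exons of all members of a locus were used, so reads of 1 model can count for a place that only another model reaches. Introns held 906 loci (39.5%), the last exon 511 (22.3%), other exons 495 (21.6%), the 3' end 226 (9.86%) and the promoter 98 (4.28%), and 27 loci reached both ends of a gene. The 3' end and last exon together held 737 loci (32.2%). Over the 1733 opposite genes the same 2 classes made up 3.85% of the bases and introns 90.8%, although a long locus touches an exon more readily than a single base does. Of member reads, the 3' end held 25.3% in replicate 2 and 24.0% in replicate 1, and the last exon 35.6% and 33.8%. Introns held 19.2% and 18.8% of the reads. Other exons held 14.6% and 14.8%, promoters 3.01% and 5.02%, and loci that reached both ends 1.56% and 2.61%. Formed from each library alone, loci numbered 2197 in replicate 2 and 508 in replicate 1.

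**Figure D1:**
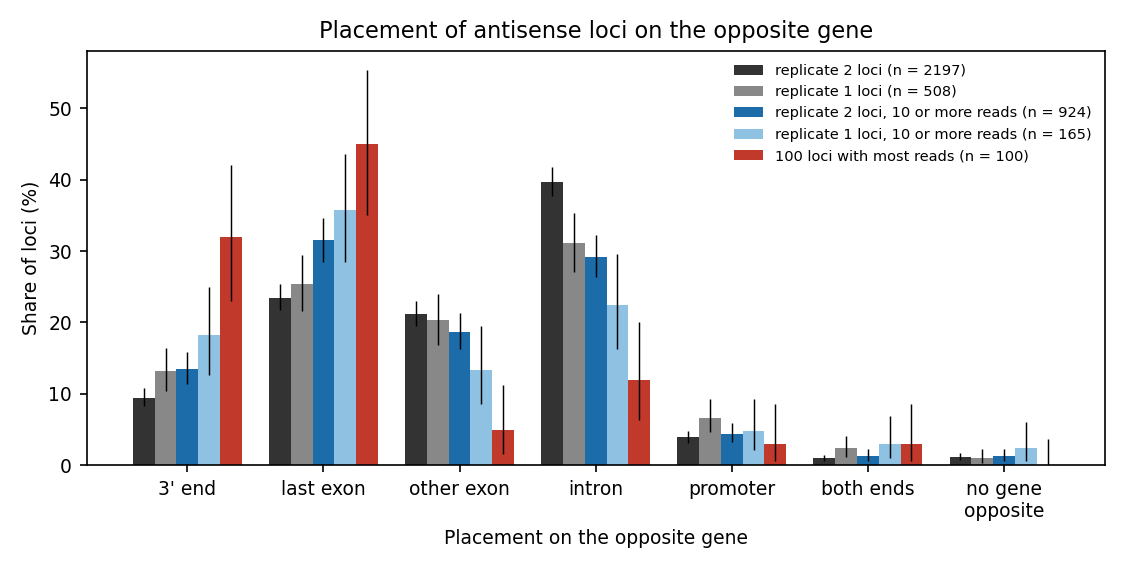
Share of antisense loci in each placement class on the opposite gene (percent, bars with exact 95% Clopper-Pearson intervals), for the loci of replicate 2 and of replicate 1, for those with 10 or more reads, and for the 100 loci with most reads. The 3' end and last exon take a larger share among loci with more reads, up to 77 of the 100, and the intron bars fall to 12 of the 100.

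The share at the 3' side was larger among well-covered loci. It was 45.0% of the 924 loci with 10 or more reads in replicate 2 (interval 41.8% to 48.3%) and 53.9% of the 165 such loci in replicate 1 (46.0% to 61.7%), and 77 of the 100 loci with most reads over both libraries lay there. Among the 401 loci with members in both libraries it was 45.6%, against 30.3% of the 1783 with members in replicate 2 alone and 13.1% of the 107 with members in replicate 1 alone. Reads were concentrated: the 100 loci with most reads held 48.3% of member reads in replicate 2 and 58.8% in replicate 1, and the first 50 held 38.2% and 45.5%.

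Reads on members came to 32104 CPM in replicate 2 and 5902 in replicate 1, a mean of 19003 ± 18528 (SD, n = 2). The ratio of 5.44 exceeds that of the whole antisense class, and the threshold of 5 reads acts on libraries of unequal antisense depth. The locus with most reads lay opposite the last exon of Cdv3, with 1877 reads in replicate 2 and 229 in replicate 1 (1211 and 188 CPM). Its ends, positions 103354029 and 103355313 of chromosome 9, were the same in both libraries, and the 3' end lay on an annotated exon boundary. Ptp4a2, a protein tyrosine phosphatase gene, had 1221 and 153 reads on a locus over an inner exon. At the 3' end of Msrb3, a methionine sulfoxide reductase gene, 1225 and 104 reads were found. The locus of Sdc4, which codes for the cell-surface proteoglycan syndecan-4, had 888 and 51 reads, and Mcu, the pore subunit of the mitochondrial calcium uniporter, had 801 and 45. In CPM, each of these 5 loci was higher in replicate 2.

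Among the other loci with most reads, the 3' end of Pitpnc1, a phosphatidylinositol transfer protein gene, held 408 antisense reads in replicate 2 against 247 in replicate 1. This locus was the most even of the first 20, with a CPM ratio of 1.30, replicate 2 over replicate 1. Satb1, which codes for a chromatin organiser, was the least even, with 721 and 32 reads and a ratio of 17.7. At Spry2, an inhibitor of receptor tyrosine kinase signalling, 585 and 33 reads were found. Nfia, a nuclear factor I transcription factor gene, had 473 and 143. All 20 loci were higher in CPM in replicate 2, with a median ratio of 6.02, and 17 of the 20 lay at the 3' end or in the last exon. Their ranking was by the summed reads of both libraries, and members held 49749 reads in replicate 2 and 7176 in replicate 1. It therefore favours loci that are high in replicate 2. Over the 401 loci with members in both libraries the median ratio was 2.09 (quartiles 1.13 and 4.25), and 317 were higher in replicate 2.

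**Figure D2:**
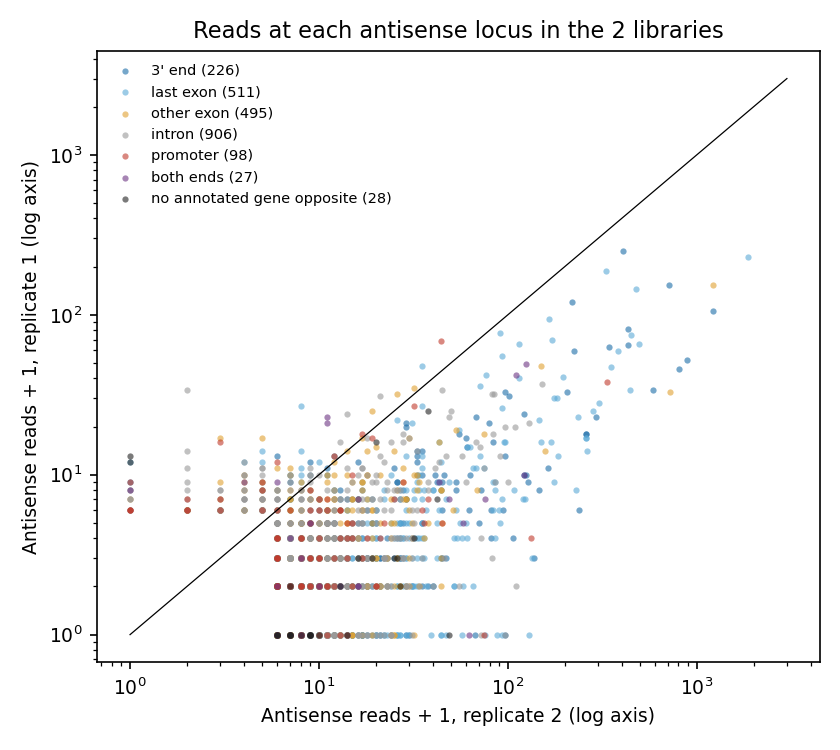
Antisense reads + 1 at each of the 2291 loci in replicate 2 (x axis, log) and replicate 1 (y axis, log), coloured by placement, with the line of equal reads. Most loci lie below the line, and the loci with most reads in both libraries are mainly of the 3' end and last exon classes.

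Promoter loci were fewer and had a different mix of libraries. Opposite the start of Dhrs3, a retinal reductase gene, 334 reads in replicate 2 and 37 in replicate 1 shared both ends. Both recorded ends lay on annotated exon boundaries, so they need not be the ends of reads. Opposite the start of Musk, the receptor kinase of the neuromuscular junction, replicate 2 had 131 reads and replicate 1 had 3, too few for a member there. The locus at the start of Gm10874 held 43 reads in replicate 2 and 68 in replicate 1. It was higher in replicate 1, and no read of Gm10874 itself was found in either library. Promoters took 12.1% of the 107 loci with members in replicate 1 alone and 3.53% of the 1783 of replicate 2 alone.

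Intronic loci had fewer reads each. The first by reads lay in introns of Klf13 (a Krüppel-like factor; 150 reads in replicate 2, 36 in replicate 1), the pseudogene Gm18795 (128 and 20) and Kcnma1, a calcium-activated potassium channel gene (108 and 19). Some genes carried several loci. Ttn, the giant elastic protein titin, carried 12 loci with 231 antisense reads in replicate 2 and 27 in replicate 1, and 10 of the 12 touched exons. Kcnma1 carried 9 loci, Qk and Tead1 8 each, Map4 7, and Neb (nebulin) and Msi2 6 each. Dmd (dystrophin) carried 5, all intronic, of which the one with most reads had 33 reads in replicate 1 and 1 read in replicate 2. These genes are long, from 117 kb for Qk to 2257 kb for Dmd, and the number of loci was not set against length. Of the 1733 opposite genes, 1375 had 1 locus.

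Most loci recurred, and the share was larger for loci with more reads. Of 2197 loci formed from replicate 2 alone, 1538 had at least 1 antisense read in replicate 1 (70.0%, interval 68.0% to 71.9%). Of 508 loci formed from replicate 1 alone, 492 had at least 1 in replicate 2 (96.9%, 94.9% to 98.2%). Of replicate 2 loci with 5 to 9 reads 59.9% recurred, of those with 10 to 49 reads 82.1%, and of those with 50 or more 92.8%. Asking for 5 or more reads in the other library left 421 of the replicate 2 loci and 406 of the replicate 1 loci. Intergenic loci with the same minimum recurred in 273 of 447 cases from replicate 2 (61.1%, 56.4% to 65.6%) and in 71 of 78 from replicate 1 (91.0%, 82.4% to 96.3%). By placement, promoter loci of replicate 2 recurred in 76 of 87 cases (87.4%, 78.5% to 93.5%) and intronic ones in 600 of 872 (68.8%, 65.6% to 71.9%). From replicate 1 the order was the other way, with 30 of 34 promoter loci (88.2%, 72.5% to 96.7%) and 153 of 158 intronic ones (96.8%, 92.8% to 99.0%). The intervals cover counting error over loci only, and loci of a library share that library.

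The 3' end of a locus was the same in both libraries far more often than its 5' end. At the 401 loci with members in both, the 3' ends of the leading models were identical at 242 (60.3%, interval 55.4% to 65.2%) and within 10 bp at 308 (76.8%). The 5' ends were identical at 105 (26.2%, 21.9% to 30.8%) and within 10 bp at 148, with a median distance of 366 bp. Recorded ends need not be the ends of reads: 629 of the 2735 single-exon members (23.0%) had a 3' end, and 784 (28.7%) a 5' end, exactly on an annotated exon boundary. Likewise, 72 members were recorded as 1 bp long. Leaving out loci with an end on a boundary, 154 of 285 3' ends (54.0%) and 40 of 237 5' ends (16.9%) were identical.

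**Figure D3:**
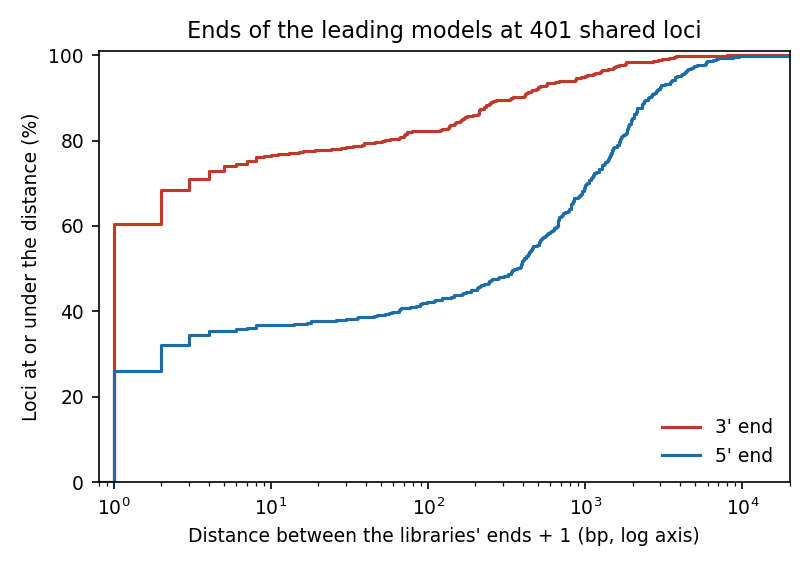
Share of the 401 loci with members in both libraries (percent) whose leading models end at or under a given distance from each other (bp + 1, log axis), for the 3' end and the 5' end. The 3' curve starts at 60.3% at distance 0 and the 5' curve at 26.2%, and the 5' median is 366 bp.

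Runs of A lay just past the 3' ends of many antisense models, as in the sequences of Msrb3, Sdc4, Mcu and Spry2. The check was made for the 635 loci whose leading model ended within the 3' UTR of the opposite gene, where the rebuilt sequence covered the end and its surroundings at 95.7% of loci; over all 2291 loci it covered 32.4%, since intronic sequence was not used here, and there the check is void. Of 631 ends with the sequence, 368 (58.3%) were followed by 12 or more A among the next 20 bases, and the mean was 12.4 A. Over every window of equal length on the antisense strand of the last-exon 3' UTRs of 582 of these genes the share was 3.81% and the mean 6.28. The check is likewise void for the 159 ends in coding sequence, of which 111 had the sequence: 4 of these (3.60%) were followed by 12 or more A, with a mean of 5.01. At the ends in 3' UTRs, a run of AAAAAA lay within 20 bases on either side at 330 of 608 loci (54.3%), against 5.75% of windows, and a run of 10 or more A at 187 (30.8%), against 1.29%.

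By position, A made up 15.2% of the last bases of the models and 67.2% of the first bases after them, and between 57.7% and 69.5% over the next 19 positions. Ends on and off annotated boundaries differed. Of the 466 ends away from a boundary 76.6% had 12 or more A in the next 20 bases, and of the ends on a boundary 11 of 165 (6.67%). Of the ends of loci with members in both libraries, 61.4% of 140 were followed by 12 or more A, and of those with members in 1 library, 57.4% of 491. A run of 10 or more A lay near 45.7% and 26.4% of these ends, and AAAAAA near 65.9% and 50.9%. Antisense models of 1 read, which are no members, gave close values: 53.8% in replicate 2 and 51.8% in replicate 1 of those with a 3' end in a 3' UTR. The poly(A) signals AATAAA or ATTAAA, searched on the model's strand alone, were present in the last 50 bases of 78 of 610 such models (12.8%), against 8.06% of windows. A letter match is a description and not a site. The 5' ends had a pattern of their own. At 509 loci whose leading model began in a 3' UTR, G made up 48.1%, 58.0%, 50.3% and 46.2% of the bases at 4, 3, 2 and 1 positions before the first base of the model, against 17.5% at 6 positions before it and 20.6% at the second base of the model. With cDNA synthesis not given in the sources used here, its part in these ends was not tested.

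**Figure D4:**
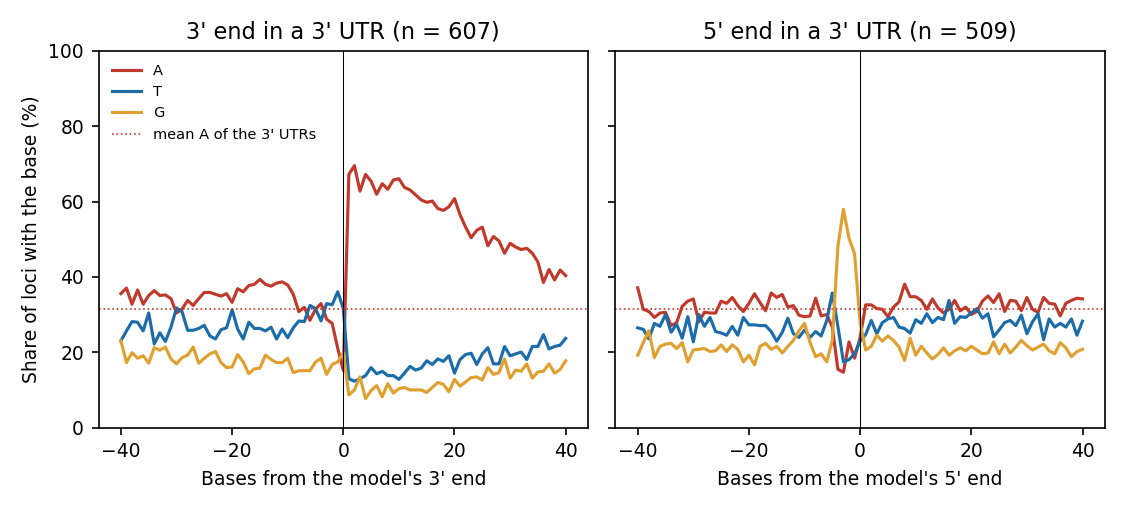
Share of loci (percent) with A, T or G at each position around the recorded 3' end (left, 607 loci) and 5' end (right, 509 loci) of the leading models that end in a 3' UTR of the opposite gene, read on the model's strand. Position 0 is the model's terminal base, and the dotted line is the mean A content of these 3' UTRs on that strand, 31.4%. A is at 67.2% at the first base past the 3' end, and G is between 46.2% and 58.0% over the 4 bases before the 5' end.

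Spliced members included models whose introns mirrored those of the opposite gene and models with introns of their own. The 42 spliced models, 31 in replicate 2 and 11 in replicate 1, held 60 introns, of which 30 had exactly both coordinates of an annotated intron on the opposite strand. In 22 models every intron was mirrored in this way and in 20 none was. Models of both libraries shared chains, and the 42 came to 37 distinct intron chains, 17 mirrored and 20 not. Of these, 11 had 2 or more introns and so could have held both sorts, and 0 did. Among spliced antisense models of any read number, 8 in each library held both sorts. Allowing 5 bp at each splice site changed no intron. Of the distinct introns whose end bases could be read, the 3 mirrored ones, at Nr2f2 and Atp2a1, read CT at the start and AC at the end on the model's strand, which is GT to AG read on the gene's strand. A mirrored intron has the coordinates of the gene's own intron, so these bases were fixed by the way mirrored introns were defined. The 4 readable introns that were not mirrored had GT to AG on the model's own strand, the usual splice signals. The other introns lie where no exon sequence covers both ends and were not read.

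Of the mirrored models, the 2-exon model opposite Mbnl1, a splicing regulator of muscle, had 148 reads in replicate 2 and 20 in replicate 1, with both ends equal. A model opposite Crebbp, a histone acetyltransferase gene, mirrored 5 introns in a row and had 14 reads in replicate 2, with 4 reads on the same chain in replicate 1. Nr2f2, a nuclear receptor gene, had a 3-exon mirrored model with 6 reads in each library. Bcl2l1, a survival factor gene, had 12 and 6 reads on a mirrored model, and Igf1r, the receptor of IGF-1, had 9 and 6. Of the fast sarcomere, Tnnt3 had a mirrored model with 6 reads in replicate 1 and Myl1 had one with 5 reads in replicate 2. Atp2a1, the calcium pump of fast fibres, had one with 6 reads in replicate 2 and 2 reads on the same chain in replicate 1. The chain was present in the other library for 10 of the 17 distinct mirrored chains and for 7 of the 20 others.

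Among spliced models with introns of their own, the largest in reads was opposite 9030025P20Rik, with 25 reads in replicate 2 and 3 exons. Ldb3, a Z-disc protein gene, had one with 13 reads in replicate 1 and 4 reads on the same chain in replicate 2. Dapk2, a kinase gene, had 12 reads in replicate 2, and Adcy2, an adenylate cyclase gene, had 10 there with 3 on the same chain in replicate 1. The model with most exons was opposite Ctcfl, with 5 exons and 6 reads in replicate 2. Over all spliced antisense models, of any read number, 138 of 659 in replicate 2 (20.9%) and 79 of 429 in replicate 1 (18.4%) had every intron mirrored.

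Reads classed as antisense on spike-in RNA, which is added as 1 strand, were either all or none of a spike-in's reads. They fell on 4 spike-ins in each library (ERCC-00009, ERCC-00116, ERCC-00059 and ERCC-00099), with 254 reads in replicate 2 and 426 in replicate 1, and these 4 had no read of another class. The other 56 and 54 detected spike-ins had 0 antisense reads beside 49006 and 51041 reads of other classes, which allows a share of up to 0.00612% and 0.00588%. A spike-in read entirely on the opposite strand can also come from the strand recorded in its annotation, and this was not tested. With strand use in read assignment not given in the sources used here, counts of a gene and of its antisense partner are uncertain.

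Opposite genes spanned the whole range of expression. The median level of the 1733 opposite genes was 9.03 CPM in replicate 2 and 14.8 in replicate 1, beside 5.16 and 7.40 over all detected genes, and 142 and 156 of them had no read of their own. Antisense reads outnumbered the gene's own reads at 845 of 2249 loci in replicate 2 (37.6%) and at 242 of 1619 in replicate 1 (14.9%). The Spry2 gene had 4 and 0 reads of its own beside its 585 and 33 antisense reads, and Cdv3 had 41 and 33 beside 1877 and 229. At Ak1, an abundant adenylate kinase of muscle, 438 and 33 member reads stood beside 7009 and 7119 reads of the gene. The share of genes with a locus was larger at higher levels. It was 6.79% of genes with a mean level under 10 CPM, 14.9% from 10 to 50 and 18.8% from 50 to 200. From 200 to 1000 CPM it was 22.5%, and at 1000 CPM or more 32.7%. Read numbers were hardly related: over 2263 loci the Spearman correlation of antisense with gene reads was 0.0797 in replicate 2 and 0.0623 in replicate 1. It is a description, since loci were chosen by their antisense reads.

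**Figure D5:**
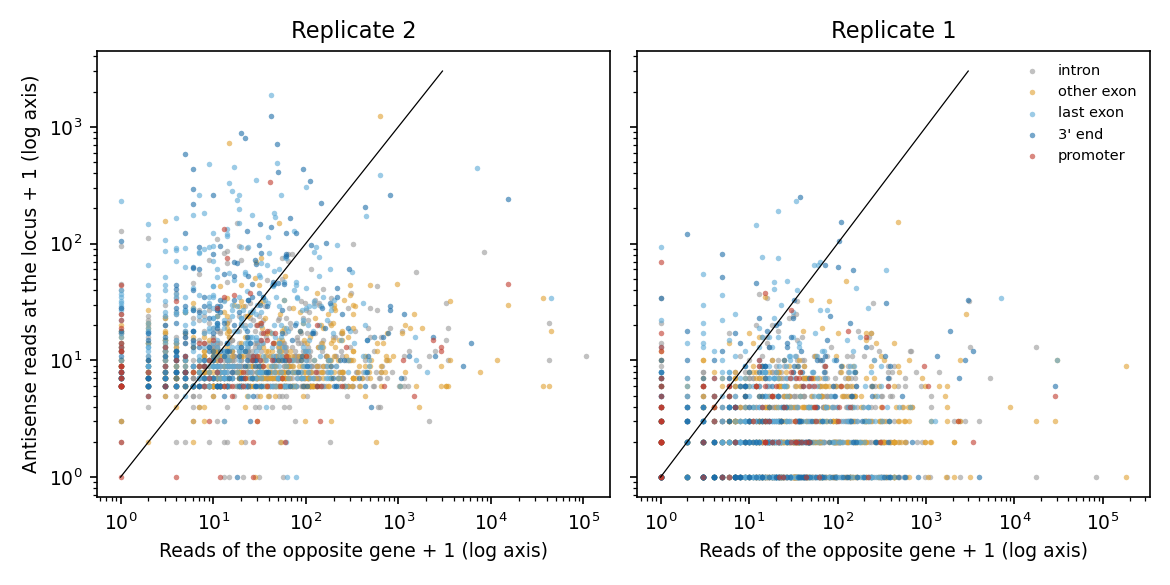
Antisense reads + 1 at a locus (y axis, log) against the reads + 1 of the opposite gene (x axis, log). Replicate 2 is on the left and replicate 1 on the right, with points coloured by placement and the line of equal reads. The 27 loci that reached both ends of a gene and the 28 with no annotated gene opposite are not drawn. Points above the line are loci with more antisense than gene reads. Over all loci opposite a gene, drawn or not, such loci numbered 845 in replicate 2 and 242 in replicate 1. Loci enter by their antisense reads, so genes with few antisense reads are absent from the plot.

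Genes of the contractile apparatus also carried antisense loci. Of 12 genes for giant and membrane proteins, 9 had a locus, with 33 loci in all, 12 of them in Ttn. Of 14 fast sarcomere genes 5 had one, of 10 slow sarcomere genes 6, of 15 detected thin filament and Z-disc genes 7, of 14 glycolysis and creatine genes 6, of 16 oxidative genes 3, of 15 growth and atrophy genes 5 and of 11 matrix genes 4. Over all detected genes the count was 1631 of 15601 (10.5%), and the listed genes are on the whole more highly expressed. Gene length was not taken into account either: Ttn spans 279 kb, Neb 242 kb and Dmd 2257 kb. Myh4, the fast IIb myosin heavy chain, had 311 antisense reads in replicate 2 and 11 in replicate 1 over 3 loci. Its largest locus, placed at the 3' end by its joined span, had 238 and 5. The leading model, that of replicate 2, began and ended in introns. The 5' ends of the 2 libraries' models lay 2975 bp apart, so the 238 reads need not lie at the gene's end. The gene itself had 15234 and 29017 reads, so the antisense reads came to 2.04 and 0.0379 per 100 gene reads. Pvalb (parvalbumin), the calcium buffer of fast fibres, had 83 and 31 antisense reads in an intron, or 0.987 and 1.00 per 100 gene reads. Myl1, a fast myosin light chain gene, had 0.0804 and 0.0793 per 100 gene reads, and Tnnt3, fast troponin T, 0.214 and 0.251. Ckm had 10 antisense reads in replicate 2 and 0 in replicate 1, beside 107548 and 83546 gene reads. Col1a1, the main fibrillar collagen chain, had 204 and 32 antisense reads at its 3' end beside 433 and 2976 gene reads, so the antisense and sense reads of Col1a1 differed between the libraries in opposite directions. Those of Myh4 did so too, while in Pvalb both were higher in replicate 2. The whole antisense class was higher in replicate 2, at 5.21% of mouse reads against 1.70%, so the pattern is not particular to Col1a1.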

How the data were processed

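Long-read RNA-seq was done by the authors on 2 libraries. The deposited tables give whole read counts per transcript model, not normalised, and the deposited annotations give their exons. Per the file headers and attributes, models were named by TALON against mm10 and GENCODE M21, separately per library. The aligner and the read filters were not given in the sources used here. Replicate 2 totalled 1703457 reads, replicate 1 1292409. The members and the gene lists were chosen with earlier results of these data known.

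Antisense models with 5 or more reads were joined into loci by span on the same strand and placed with a 500 bp window (Python 3.11.15, numpy 2.4.6). Left out were 2 models with 10393 reads over Klhl31 in replicate 2 and 1 with 2369 reads in replicate 1, 2 with 740 and 2 with 1883 on chromosome 17, and 4 with 254 and 3 with 423 on spike-ins. Exon sequence came from M21 transcripts. The opposite gene was the one with most exonic overlap. Shares carry exact Clopper-Pearson intervals (scipy 1.17.1), and a 0 is limited by 3 counts, both for counting error only, since reads may be copies of 1 molecule. No test was made, because members were chosen by reads in 1 group. Named loci were the 20 with most reads, the 10 spliced with most reads, up to 20 found in both libraries, the first 3 of each placement, and those opposite 108 listed genes. Other genes that are named were chosen after their values were seen, as were the division into last and other exons and the separation of ends on exon boundaries. Joining and placing were tested on 200 made-up loci, and 200 were placed as made.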

Additional observations from a re-analysis of the deposited data

How the results depend on the processing

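Of 46 values under another setting, 24 stayed within the spread between libraries, within the 95% interval, or within 1.5 times the count. For reads on members the spread was 18528 CPM, so wide that staying within it says little. Replicate 1 went from 5902 to 7730 CPM with all antisense models at the loci and still counted as within. The spread of the shares of loci came from the same single-library values that were judged with a library left out. The number of loci, 2291, was 4494 with a minimum of 3 reads and 939 with 10, and it was between 508 and 2197 with either library left out. The share of loci at the 3' end or in the last exon, 32.2%, was 24.3% with 3 reads and 44.7% with 10, and 33.0% to 38.6% with either library left out. The intronic share, 39.5%, was 47.2% with 3 reads and 29.2% with 10, and 31.1% to 39.7% by library. Loci with single-exon models alone, 98.4%, were 98.9% with 10 reads and 97.8% to 98.6% by library. Windows of 200 or 1000 bp and coding genes alone moved neither placement share past its spread, and joining by exons left all of these values the same. The number of loci was 2169 with coding genes alone. Recurrence of replicate 2 loci was 19.2% at 5 or more reads in the other library, 56.0% with the same intron chain or a 3' end within 50 bp, 57.1% with a minimum of 3 reads and 83.7% with 10. For replicate 1 loci the first 3 of these were 79.9%, 78.3% and 92.6%. The median level of the opposite genes on annotated transcripts alone was 1.94 CPM in replicate 2 and 5.76 in replicate 1. In a setting added after the data were seen, ends away from exon boundaries were followed by 12 or more A at 76.6% and ends on them at 6.67%. The cause was not tested for these, beyond the smaller or larger set of models that a read minimum leaves. No paired analysis was possible because the series has 1 group. A locus of 5 reads was at 3.23 CPM in replicate 2, above the 2.47 CPM that 0 reads allowed in replicate 1. The part of depth in recurrence was not tested.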
